A study of Mus musculus with 6 samples.

Results

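The genes described here are 33 named genes of glucose handling: the enzymes of glycolysis and of glycogen storage, the carriers of glucose and lactate, and a pair of genes of the oxygen-sensing system that controls many of them. They were chosen by name from a list that was drawn up with earlier results of these data known, although no measured value enters the rule, and all 33 were found among the 25663 genes of the count table. RNA sequencing counts were deposited for 6 samples of mouse neutrophils in 2 groups of 3. The first group, LPS+resveratrol, received lipopolysaccharide (LPS, a bacterial cell wall component that activates neutrophils) and 25 μmol, as the labels write it, of resveratrol, a plant polyphenol, for 6 hours. The second group, LPS, received lipopolysaccharide without resveratrol for the same time. All cells were sorted from bone marrow of C57BL/6 mice by the surface markers CD45, CD11b and Ly6G. Every sample received LPS, so the values below compare resveratrol with its absence in stimulated cells and hold no unstimulated level. The series' design text mentions duplicates, although 3 samples carry each group label, and the labels do not say whether the replicates came from separate mice, and the p-values therefore reflect only how these samples varied, possibly for technical reasons.

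Neutrophils have few mitochondria and draw most of their ATP from glycolysis, the breakdown of glucose to pyruvate, which is largely turned into lactate and exported. They also store glycogen, a glucose polymer that they can use where glucose is scarce. Entry of glucose, its phosphorylation by hexokinase and the step of phosphofructokinase are the main points of control, and activation by LPS or lack of oxygen raises many of these genes through the transcription factor HIF, whose alpha subunit Hif1a encodes.

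HIF binds a short core, ACGTG or GCGTG, in the control regions of glycolytic genes. The promoters of 4 members are shown because these genes had the largest differences between the groups within the hexokinases, the PFKFB enzymes and lower glycolysis, and because Pfkfb3 and Pfkfb4, which encode related enzymes, differed in opposite directions. Each run is the 250 bases before the RefSeq gene start on the gene's own strand in build GRCm38.p6, with matches to either core on either strand in capitals. They lie at chr2:11502091-11502340 on the minus strand for Pfkfb3, chr9:108991652-108991901 on the plus strand for Pfkfb4, chr13:55021386-55021635 on the minus strand for Hk3 and chr7:46845554-46845803 on the plus strand for Ldha. Where RefSeq gives a gene more than 1 start, the start with the most matches was taken.
Pfkfb3 promoter: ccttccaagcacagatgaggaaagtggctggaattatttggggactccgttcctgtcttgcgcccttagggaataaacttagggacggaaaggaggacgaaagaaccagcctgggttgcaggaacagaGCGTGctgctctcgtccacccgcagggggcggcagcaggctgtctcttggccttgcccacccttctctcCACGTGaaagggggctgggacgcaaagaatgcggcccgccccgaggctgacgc
Pfkfb4 promoter: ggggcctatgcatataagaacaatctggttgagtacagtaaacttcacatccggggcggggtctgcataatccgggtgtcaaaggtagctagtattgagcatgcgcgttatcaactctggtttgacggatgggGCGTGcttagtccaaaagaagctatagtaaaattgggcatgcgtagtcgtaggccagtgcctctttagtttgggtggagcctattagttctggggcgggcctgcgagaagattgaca
Hk3 promoter: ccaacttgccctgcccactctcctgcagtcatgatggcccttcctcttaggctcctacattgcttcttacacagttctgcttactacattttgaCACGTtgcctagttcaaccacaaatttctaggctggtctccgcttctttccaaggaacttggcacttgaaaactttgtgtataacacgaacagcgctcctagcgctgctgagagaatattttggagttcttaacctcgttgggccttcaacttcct
Ldha promoter: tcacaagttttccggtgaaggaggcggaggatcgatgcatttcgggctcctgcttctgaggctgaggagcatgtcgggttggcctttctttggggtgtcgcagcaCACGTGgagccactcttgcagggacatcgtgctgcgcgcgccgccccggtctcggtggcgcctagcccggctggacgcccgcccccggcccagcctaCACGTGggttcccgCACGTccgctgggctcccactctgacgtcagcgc
The word CACGTG reads ACGTG on both strands and counts as 2 overlapping matches. The stretches hold 3 matches for Pfkfb3, 1 for Pfkfb4, 1 for Hk3 and 5 for Ldha. In the full 300-base windows, which run 50 bases past the start, Ldha had 7 matches at the start shown. That number was reached by 0.301% of all 32851 windows in the table. The window at the other start of Ldha had 2 matches. At least 1 match was present in 35 of the 46 windows of the members, or 76.1%, against 43.8% of all windows. No share over windows of like base composition is given here, and some windows of a gene, as for Eno1 and Aldoa, overlap. By gene, 27 of the 32 members with a window had a match in at least 1 window. Among them were 10 of the 11 that also changed without LPS+resveratrol replicate 1 as described below, in either direction. These counts by gene cannot be set against the 43.8%, since some genes have several windows and no share over all genes is given here. Whether changed members differ from the others in this was not tested. A match describes the letters only, and binding was not measured.

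LPS+resveratrol replicate 1 differed from all 5 remaining libraries. Its log-level correlations with them were 0.954 to 0.964, while each of the others reached at least 0.99 with some other library. Its quality weight in limma was 0.0726, against 1.58 to 1.84 for the rest. Total counts were 18141352 to 19928153 per library. The distance of this library from LPS+resveratrol replicates 2 and 3 moved with transcript length and base composition: its median was -0.65 (log2) over genes under 1 kb, 0.33 over genes above 4 kb, -0.42 over genes above 55% GC and 0.28 over genes below 45% GC. None of the 9 neutrophil markers was at 0. Their summed level was 21947 to 44696 CPM (counts scaled to a common library total) in LPS+resveratrol and 39256 to 42077 CPM in LPS, with the lowest value in LPS+resveratrol replicate 1. That low sum came from S100a8 and S100a9, at 2579 and 8125 CPM in this library. The other 5 had 9615 to 11425 and 21248 to 23362 CPM. Ly6g was also lowest in this library, at 108 CPM against 114 to 204 CPM. Mmp8, Mmp9, Cxcr2 and Csf3r were highest there, and Retnlg and Itgam lay inside the range of the other libraries. In all LPS+resveratrol libraries Mmp8, Mmp9 and Retnlg were above every LPS library, and no neutrophil marker was below every LPS library in all of them. Markers of B cells summed to 87.8 to 133 CPM in LPS+resveratrol and 141 to 152 CPM in LPS, those of T cells to 7.82 to 8.11 CPM and 9.06 to 9.86 CPM, those of NK cells to 1.89 to 2.19 CPM and 3.21 to 4.24 CPM, those of eosinophils to 29.2 to 60.1 CPM and 63.2 to 71.1 CPM, and those of erythroid cells to 12.1 to 91.0 CPM and 69.0 to 84.7 CPM, in that order of groups. Monocyte and macrophage markers summed to 2482 to 2726 CPM in LPS+resveratrol and 2533 to 2578 CPM in LPS, and dendritic cell markers to 17.3 to 19.3 CPM and 17.0 to 20.5 CPM. The monocyte and macrophage markers moved apart within their sum: in all LPS+resveratrol libraries Adgre1 was above every LPS library, at 1288 to 1454 against 1007 to 1070.3 CPM, and 5 of the 7 genes, Csf1r, Ly6c2, Ccr2, Cx3cr1 and Ms4a7, were below. No gene of these lists was at 0 in all libraries. The part of these markers in the results below was not tested, and fewer cells of a type and less RNA per cell cannot be told apart in bulk RNA.

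Without LPS+resveratrol replicate 1, all 3 hexokinase genes, Pfkfb4, Eno1 and Ldha fell with resveratrol, and Pfkfb3, Pfkl, Aldoa, Slc2a3, Pgm2 and Gbe1 rose. These 12 of 32 tested members made up 37.5%, with 6 in each direction, where 25.4% of the 13468 tested genes passed in the same comparison, 12.1% higher and 13.3% lower. The changes were small, between 0.67-fold for Hk3 and 1.33-fold for Pfkfb3. Over all 6 libraries none of the 32 members passed edgeR's quasi-likelihood test at an adjusted p under 0.05, where 1.83% of all tested genes did. At an unadjusted p under 0.05 there were 5 members, Hk3, Pfkfb3, Pgm2, Pfkfb4 and Gbe1, or 15.6% of those tested, against 19.9% of all tested genes. DESeq2 called Hk3 and Pfkfb3, or 6.25%, against 6.27% of all tested genes, and limma-voom called no member. These shares over 6 libraries lie at or below the background, but those of some other settings over 6 libraries lie above it. Members called were 34.4% against 23.4% of all tested genes in limma-voom with library quality weights. With offsets for transcript length and GC content they were 9.38% against 6.01%, and without a filter on low counts 3.03% against 1.53%. Leaving out any library other than LPS+resveratrol replicate 1 gave 0 called members and 0 called genes. The 12 members had the same sign in both comparisons, but these share all libraries except LPS+resveratrol replicate 1, so this agreement is no separate support. Aldoc, a brain-type aldolase, did not have enough counts to be tested, with 0.32 to 0.51 CPM in LPS+resveratrol and 0.44 to 0.52 CPM in LPS.

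**Figure D1:**
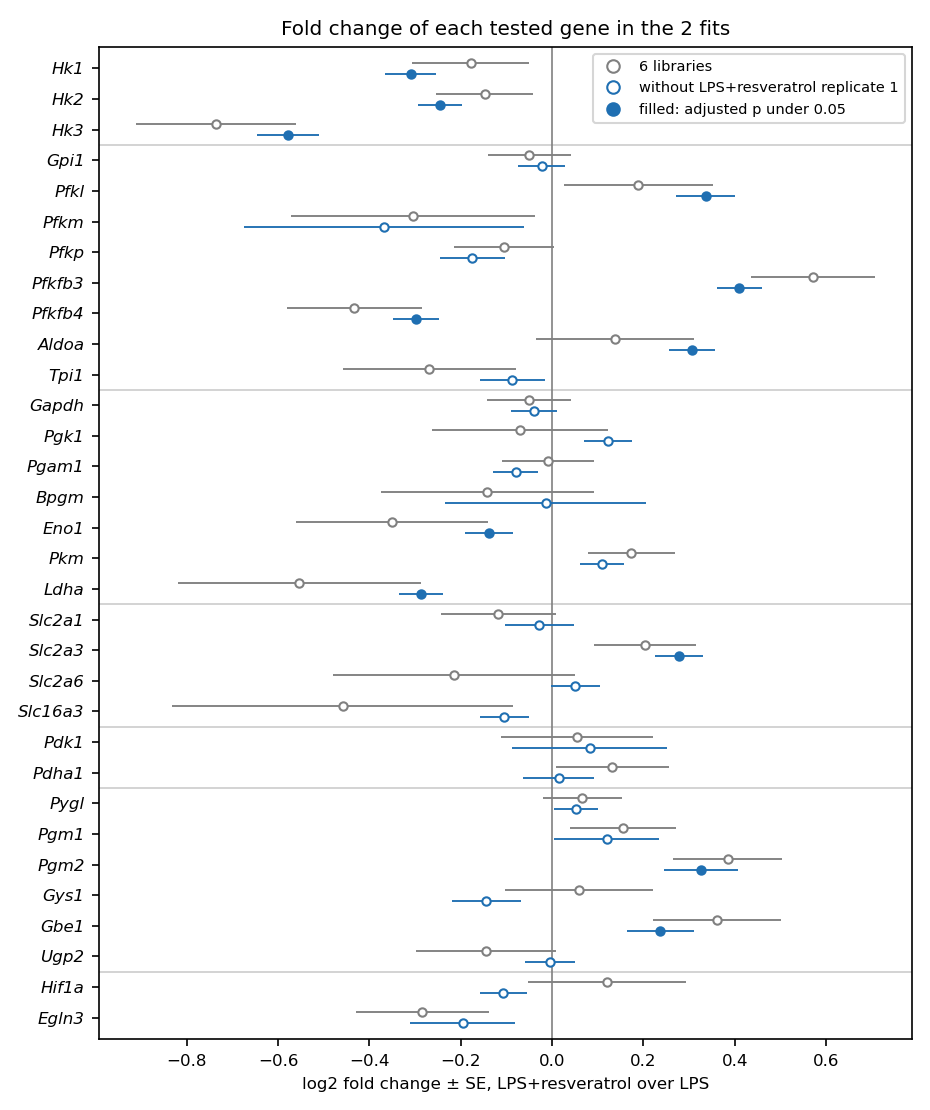
Log2 fold change with its standard error for each of the 32 tested genes, LPS+resveratrol over LPS, in edgeR's fit over 6 libraries (grey) and without LPS+resveratrol replicate 1 (blue), with filled points for an adjusted p under 0.05 and lines between the role groups. The 3 hexokinases lie left of 0 and Pfkfb3 right of 0 in both fits, and filled points appear only in blue.

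Counting libraries in place of a test, the LPS+resveratrol and LPS values did not overlap for 12 of 32 members, or 37.5%, where 33.3% of all tested genes did not overlap, so this share lies near the background. Of these, Pfkfb3, Pkm, Pygl, Pgm1, Pgm2 and Gbe1 were higher in all 3 LPS+resveratrol libraries (17.3% of all tested genes were), and Hk3, Gpi1, Pfkfb4, Eno1, Ldha and Egln3 were lower in all 3 (15.9% of all tested genes were). The median log2 fold change of the tested members was -0.06 over 6 libraries and -0.03 without LPS+resveratrol replicate 1, against -0.004 and -0.0071 over all tested genes. In the log2 fold changes, 19 members were below 0 and 13 above it in both fits, but Pgk1, Slc2a6, Gys1 and Hif1a had opposite signs in the 2 fits.

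**Figure D2:**
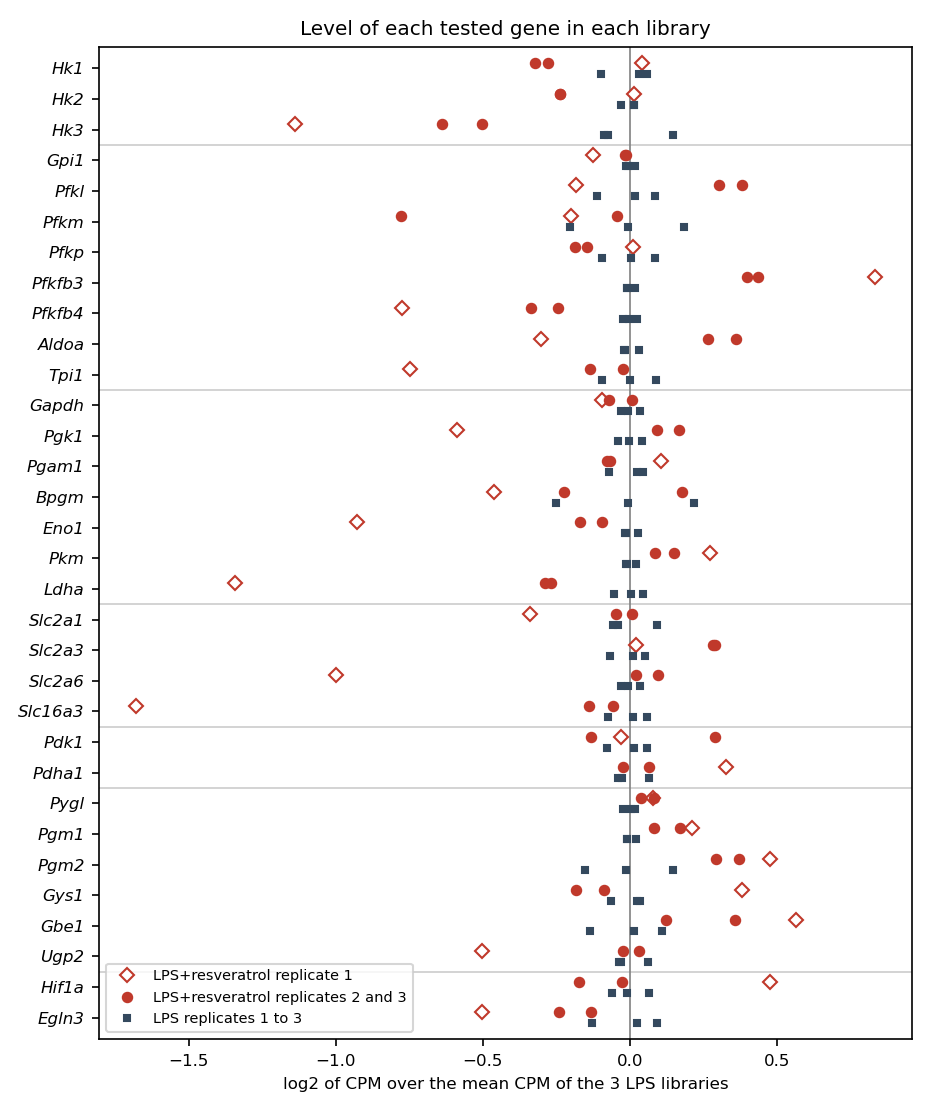
Level of each tested gene in each of the 6 libraries as log2 of CPM over the mean of the 3 LPS libraries. LPS replicates (squares) lie around 0, and LPS+resveratrol replicate 1 (open diamonds) is far left of the other LPS+resveratrol libraries (filled circles) for Slc16a3, Slc2a6, Ldha and Eno1.

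Levels between genes were compared as CPM per kb of the longest coding transcript. Pkm, which encodes the muscle-type pyruvate kinase of the last step of glycolysis, averaged 582 ± 38.8 CPM per kb in LPS+resveratrol and 517 ± 6.67 CPM per kb in LPS (SD, n = 3 each). Aldoa, the aldolase that splits the sugar, averaged 511 ± 117 and 465 ± 9.32 CPM per kb, and Pygl, the liver-type glycogen phosphorylase that releases glucose units from glycogen, 395 ± 6.45 and 377 ± 5.55 CPM per kb, each with LPS+resveratrol before LPS. In LPS, Pkm was highest, and the 3 genes lay apart by more than their SDs. In LPS+resveratrol the order of Pkm and Aldoa rested on replicate 1: Pkm had 624, 574 and 548 CPM per kb and Aldoa 377, 597 and 558 CPM per kb in replicates 1 to 3, so that Aldoa was the higher in replicates 2 and 3. Eno1, Gpi1, Slc2a6, Pgk1 and Slc2a3 came next, between 143 and 209 CPM per kb in LPS+resveratrol and 141 and 267 CPM per kb in LPS. This order is uncertain where a gene has near copies, as given below for Eno1, Pgk1, Pkm and Gapdh, since reads could be split. Slc2a6 and Slc2a3 shared no 50-base word with another gene.

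Hexokinases trap glucose in the cell by phosphorylating it, and neutrophils carry Hk1, the widely expressed form, Hk2, the inducible form, and Hk3, the form typical of myeloid cells. All 3 fell with resveratrol without LPS+resveratrol replicate 1. Hk3 had 125, 194 and 177 CPM in LPS+resveratrol replicates 1 to 3, against 262, 259 and 305 CPM in LPS. Every LPS+resveratrol library lay below every LPS library. Its log2 fold change was -0.74 ± 0.18 (SE) over 6 libraries, with an adjusted p of 0.0899, and -0.58 ± 0.07 without LPS+resveratrol replicate 1, with an adjusted p of 4.29e-06. DESeq2 over 6 libraries gave Hk3 an adjusted p of 0.00874.

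Hk1 had 126, 101 and 97.7 CPM in LPS+resveratrol, against 114, 125 and 127 CPM in LPS. LPS+resveratrol replicate 1 lay inside the range of LPS, and the other LPS+resveratrol libraries lay below it. The log2 fold change was -0.18 ± 0.13 over 6 libraries (adjusted p = 0.467) and -0.31 ± 0.06 without LPS+resveratrol replicate 1 (adjusted p = 4.15e-05). Hk2 followed the same pattern, with 219.9, 185 and 185 CPM in LPS+resveratrol, against 213, 219.9 and 219.8 CPM in LPS. Its log2 fold change was -0.15 ± 0.11 over 6 libraries (adjusted p = 0.47) and -0.25 ± 0.05 without LPS+resveratrol replicate 1 (adjusted p = 0.000123). Summed over the 3 genes, hexokinase levels were 471, 479.6 and 459 CPM in LPS+resveratrol, against 589, 604 and 653 CPM in LPS. Here LPS+resveratrol replicate 1 lay with replicates 2 and 3, since its Hk3 was lower and its Hk1 and Hk2 were higher than theirs. Among the other role groups, the glycogen sum was higher in every LPS+resveratrol library, at 1447 to 1502 CPM against 1388 to 1424 CPM. The remaining role sums overlapped between LPS+resveratrol and LPS.

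**Figure D3:**
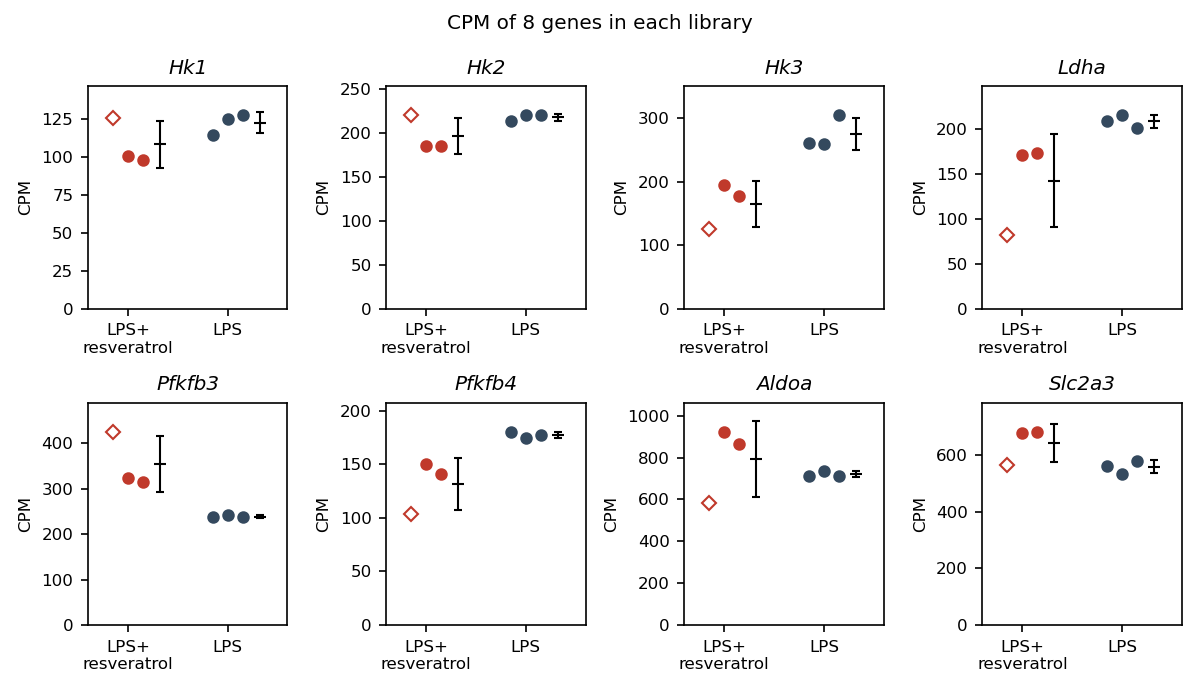
CPM of 8 genes in each library from a baseline of 0, with LPS+resveratrol left of LPS, an open diamond for LPS+resveratrol replicate 1 and a bar for mean ± SD (n = 3 each). Hk3, Ldha and Pfkfb4 are lower and Pfkfb3 is higher in every LPS+resveratrol library, while for Hk1, Hk2 and Slc2a3 replicate 1 lies inside the range of LPS, and for Aldoa below it.

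The PFKFB enzymes make and remove the allosteric activator of phosphofructokinase and so set the pace of glycolysis. Pfkfb3, whose product has mainly the activating kinase activity, rose and Pfkfb4 fell with resveratrol without LPS+resveratrol replicate 1. Pfkfb3 had 426, 324 and 315 CPM in LPS+resveratrol, against 238, 242 and 237 CPM in LPS. All LPS+resveratrol libraries were above all LPS libraries, and replicate 1 was the highest. In edgeR the log2 fold change was 0.57 ± 0.14 over 6 libraries (adjusted p = 0.0901) and 0.41 ± 0.05 without LPS+resveratrol replicate 1 (adjusted p = 4.73e-08), and DESeq2 over 6 libraries gave an adjusted p of 0.0122. Pfkfb4 had 104, 149.8 and 141 CPM in LPS+resveratrol, against 181, 175 and 177 CPM in LPS, with no overlap. Its log2 fold change was -0.43 ± 0.15 over 6 libraries (adjusted p = 0.179) and -0.30 ± 0.05 without LPS+resveratrol replicate 1 (adjusted p = 1.45e-05). The promoters printed above hold 3 core matches for Pfkfb3 and 1 for Pfkfb4, but Pfkfb3 was shown at the start with the most matches. The 300-base window at its other start holds 1 match, as many as the only window of Pfkfb4. A part of these matches in the changes was not tested.

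The balance between these genes, a ratio chosen after the values were seen, was 4.10, 2.16 and 2.24 Pfkfb3 counts per Pfkfb4 count in LPS+resveratrol, against 1.32, 1.38 and 1.34 in LPS. Per kb, Pfkfb3 made up 73.9%, 60.7% and 61.2% of the summed PFKFB level in LPS+resveratrol, against 48.4%, 49.5% and 48.8% in LPS. Pfkfb1 and Pfkfb2 held under 1% each.

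**Figure D4:**
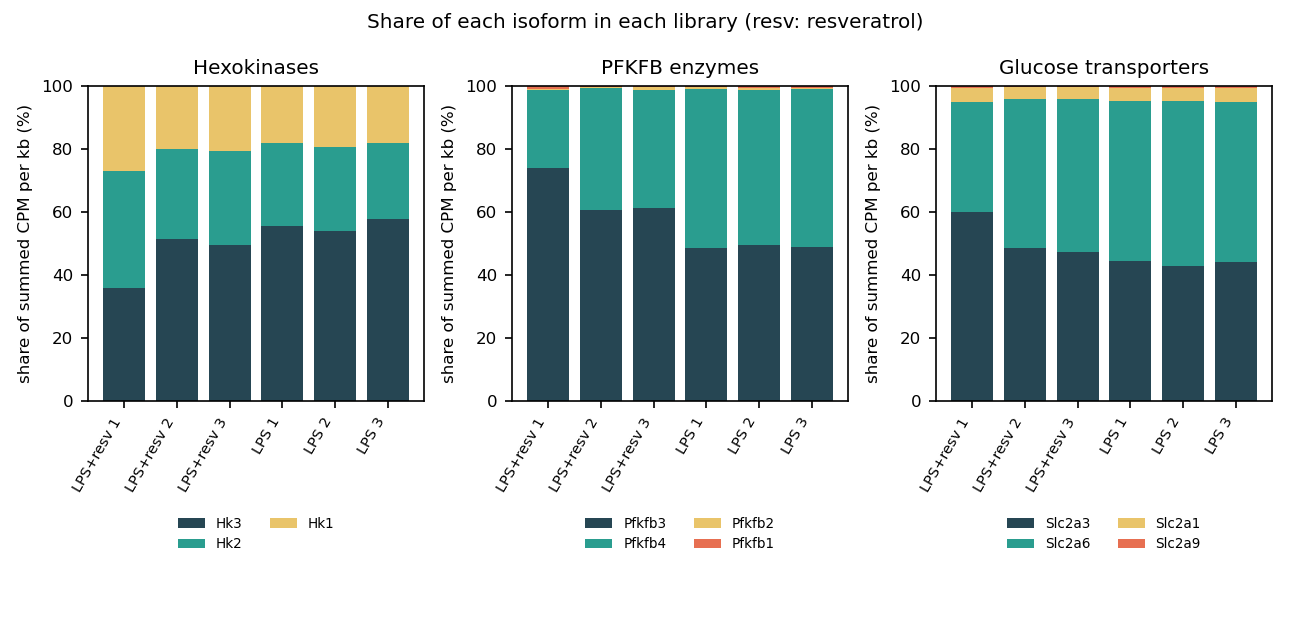
Share of each isoform in the summed CPM per kb of its family in each library, for hexokinases, PFKFB enzymes and glucose transporters, with LPS+resveratrol libraries left of LPS libraries. Hk3 holds 35.9% to 51.4% in LPS+resveratrol and 53.8% to 57.7% in LPS, and Pfkfb3 holds 60.7% to 73.9% and 48.4% to 49.5%, in the same order.

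Of the other middle enzymes, Aldoa and Pfkl, the liver-type phosphofructokinase, rose without LPS+resveratrol replicate 1. Aldoa had 584, 924 and 865 CPM in LPS+resveratrol, against 711, 736 and 712 CPM in LPS, so that replicate 1 lay below and replicates 2 and 3 above the LPS range. The log2 fold change was 0.14 ± 0.17 over 6 libraries (adjusted p = 0.679) and 0.31 ± 0.05 without LPS+resveratrol replicate 1 (adjusted p = 1.11e-05). With offsets for transcript length and GC content, LPS+resveratrol replicate 1 differed from replicates 2 and 3 by 0.11 (log2), against -0.62 as counted, and the log2 fold change over 6 libraries was 0.42 (adjusted p = 0.021). Pfkl had 55.5, 82.1 and 77.8 CPM in LPS+resveratrol, against 58.3, 66.8 and 63.8 CPM in LPS, again with replicate 1 below the LPS range and the others above it. Its log2 fold change without LPS+resveratrol replicate 1 was 0.34 ± 0.07 (adjusted p = 0.000129).

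The platelet-type phosphofructokinase Pfkp did not pass, with 61.5, 55.3 and 53.6 CPM in LPS+resveratrol, against 61.2, 57.2 and 64.9 CPM in LPS. Pfkm, the muscle type, was low at 1.13 to 1.89 CPM in LPS+resveratrol and 1.69 to 2.21 CPM in LPS. Gpi1, which converts glucose phosphate to fructose phosphate, had 477, 516 and 514 CPM in LPS+resveratrol, against 518, 516 and 526 CPM in LPS. Its groups did not overlap, but the fold was 0.966 over 6 libraries (adjusted p = 0.784). Tpi1, which interconverts the triose phosphates, had 35.2, 58.2 and 53.9 CPM in LPS+resveratrol, against 55.3, 59.1 and 62.9 CPM in LPS, and did not pass in either fit.

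In lower glycolysis, Ldha and Eno1 fell without LPS+resveratrol replicate 1, and the other 5 members did not pass. Ldha encodes the lactate dehydrogenase subunit that turns pyruvate into lactate, and its promoter printed above carries a pair of CACGTG words. Its level was 82.1, 171 and 173 CPM in LPS+resveratrol, against 209, 215 and 201 CPM in LPS. All LPS+resveratrol libraries were lower, with replicate 1 at 0.479 of the mean of replicates 2 and 3. In edgeR the log2 fold change was -0.55 ± 0.27 over 6 libraries (adjusted p = 0.297) and -0.29 ± 0.05 without LPS+resveratrol replicate 1 (adjusted p = 1.42e-05). Ldhb, the other main subunit gene, held 0.975% to 3.23% of the summed Ldha and Ldhb level per kb in LPS+resveratrol and 1.17% to 1.54% in LPS.

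Eno1, the enolase of the step before pyruvate kinase, had 284, 507 and 481 CPM in LPS+resveratrol, against 535, 551 and 536 CPM in LPS. The groups did not overlap, and LPS+resveratrol replicate 1 was far below replicates 2 and 3. The log2 fold change was -0.35 ± 0.21 over 6 libraries (adjusted p = 0.386) and -0.14 ± 0.05 without LPS+resveratrol replicate 1 (adjusted p = 0.0488). With the length and GC offsets and without LPS+resveratrol replicate 1, edgeR gave -0.06 (adjusted p = 0.395), so this call was lost. Pkm had 1519, 1396 and 1333 CPM in LPS+resveratrol, against 1249, 1245 and 1275 CPM in LPS. Every LPS+resveratrol library was higher, but neither fit passed, with log2 fold changes of 0.17 ± 0.10 (adjusted p = 0.352) and 0.11 ± 0.05 (adjusted p = 0.0864). Gapdh, which oxidises the triose phosphate and often serves as a loading control, had 142, 144 and 153 CPM in LPS+resveratrol, against 151, 148 and 156 CPM in LPS. Its groups overlapped, with a log2 fold change of -0.05 ± 0.09 over 6 libraries (adjusted p = 0.778).

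Pgk1, the first ATP-yielding enzyme of the pathway, had 194, 328 and 311 CPM in LPS+resveratrol, against 301, 292 and 284 CPM in LPS, and Pgam1, a phosphoglycerate mutase, had 206, 182 and 181 CPM, against 182, 197 and 194 CPM. Bpgm, which makes the phosphoglycerate that lowers oxygen affinity of haemoglobin in red cells, was at 2.52 to 3.93 CPM in LPS+resveratrol and 2.91 to 4.03 CPM in LPS. Several of these genes have near copies in the genome, and their counts are uncertain where the authors' counting could split reads. In 50-base words of the longest coding transcript, 82.5% of Gapdh, 72.2% of Eno1, 68.0% of Pgk1, 41.5% of Pgam1, 34.4% of Pkm and 16.6% of Ldha also occur in other annotated genes. Outside lower glycolysis the share was 25.3% for Gpi1, 17.1% for Pfkp, 16.9% for Pdha1 and 13.5% for Aldoa, and lower for the rest. Counted genes sharing at least 50 such words with Gapdh summed to 132, 205 and 192 CPM in LPS+resveratrol, against 193, 206 and 190.1 CPM in LPS, more than Gapdh itself in all libraries but LPS+resveratrol replicate 1. For Pkm, genes sharing at least 50 such words summed to 193, 153 and 154 CPM in LPS+resveratrol, against 139, 119 and 151 CPM in LPS. Hk2, Hk3, Pfkfb4, Slc2a3, Slc2a6, Slc16a3 and Gbe1 shared no such word with another gene, and Pfkfb3 shared 0.631%. Pkm also shares 15.3% of its exon bases with Gm49759 on the same strand, and Pdha1 16.1% with Map3k15 on the opposite strand.

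Among the carriers, Slc2a3, which encodes the high-affinity glucose transporter GLUT3, rose without LPS+resveratrol replicate 1. Its level was 566, 679 and 683 CPM in LPS+resveratrol, against 563, 533 and 579 CPM in LPS. LPS+resveratrol replicate 1 lay inside the LPS range and the other LPS+resveratrol libraries above it. The log2 fold change was 0.20 ± 0.11 over 6 libraries (adjusted p = 0.348) and 0.28 ± 0.05 without LPS+resveratrol replicate 1 (adjusted p = 8.08e-05). Slc2a1, the widely expressed transporter GLUT1, had 35.2, 43.2 and 44.8 CPM in LPS+resveratrol, against 43.3, 42.8 and 47.5 CPM in LPS, and did not pass (log2 fold change -0.12 ± 0.13 over 6 libraries, adjusted p = 0.623). Per kb, Slc2a3 and Slc2a6 held nearly all of the summed level of the 4 glucose transporters compared, and Slc2a1 held 3.73% to 4.53% in LPS+resveratrol and 4.15% to 4.38% in LPS.

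Slc2a6 and Slc16a3 were far lower in LPS+resveratrol replicate 1 than in its replicates 2 and 3. Slc2a6, a lysosomal sugar carrier of the same family, had 178, 359.9 and 379.9 CPM in LPS+resveratrol, against 348, 353 and 364 CPM in LPS. Slc16a3, which encodes the lactate exporter MCT4, had 158, 459 and 486 CPM in LPS+resveratrol, against 480.5, 527 and 509 CPM in LPS. For both, replicates 2 and 3 lay at or near the LPS range and replicate 1 below it. Slc16a3 did not pass in either fit, with log2 fold changes of -0.46 ± 0.37 (adjusted p = 0.518) and -0.11 ± 0.05 (adjusted p = 0.162). The distance of LPS+resveratrol replicate 1 from replicates 2 and 3 was -1.58 (log2) for Slc16a3, the largest among the members, followed by -1.06 for both Ldha and Slc2a6. With the length and GC offsets it was -1.40 for Slc16a3, -0.80 for Ldha and -0.46 for Slc2a6.

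**Figure D5:**
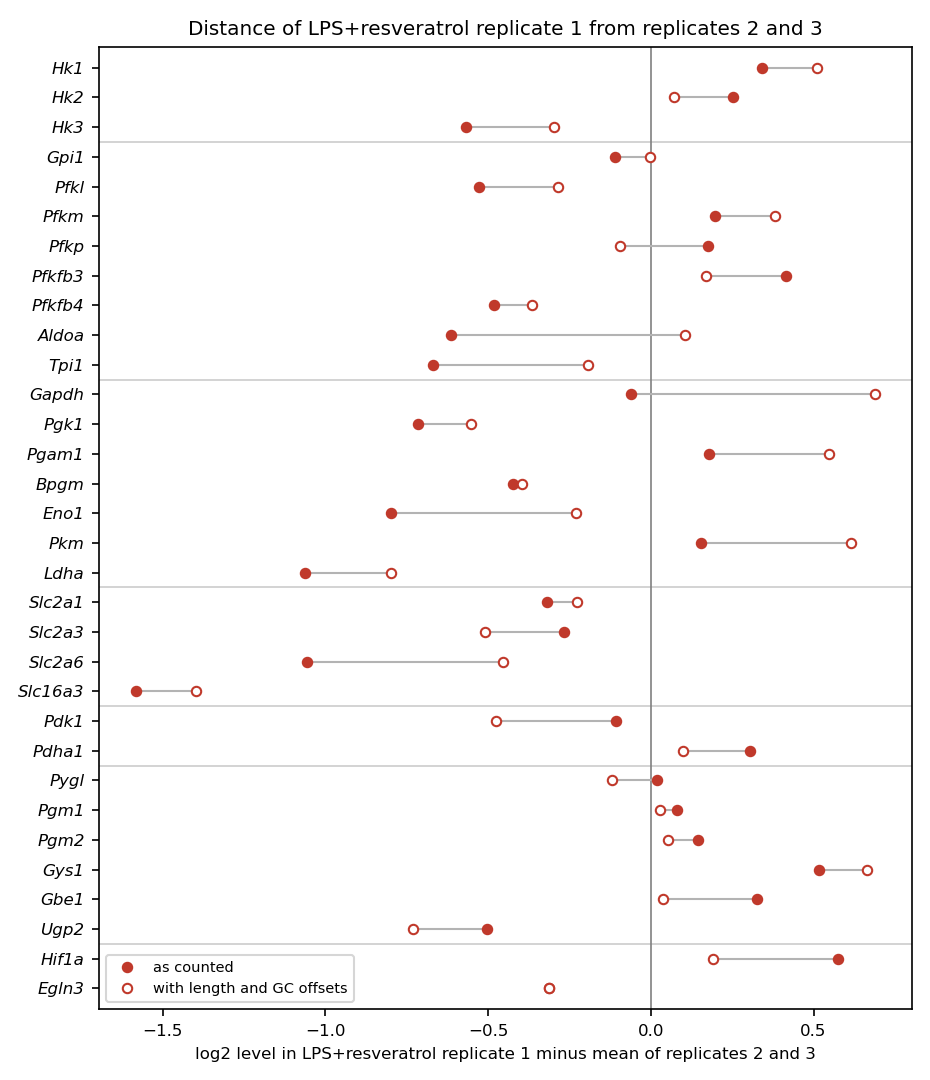
Distance of LPS+resveratrol replicate 1 from the mean of LPS+resveratrol replicates 2 and 3 for each tested gene on the log2 scale, as counted (filled) and with offsets for transcript length and GC content (open). Slc16a3 stays farthest left in both, Aldoa and Slc2a6 move towards 0, and Gapdh moves away from it.

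Across the tested members the distance of LPS+resveratrol replicate 1 had a median of -0.11 as counted and -0.11 with the offsets, against 0.03 and 0.03 over all tested genes. As counted, 3 members, Slc16a3, Ldha and Slc2a6, were at least 2-fold lower in replicate 1, or 9.38%, where 10.5% of all tested genes were. With the offsets this held for 1 member, or 3.12%, against 5.29% of all tested genes. Hif1a and Gys1 lay at least 0.5 above replicates 2 and 3, or 6.25% of the members against 20.3% of all tested genes, and 10 members at least 0.5 below, or 31.2% against 23.5%.

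The fate of pyruvate in mitochondria is set by pyruvate dehydrogenase, of which Pdha1 encodes a subunit, and by the kinases that switch it off, such as Pdk1. Neither gene passed. Pdha1 had 48.5, 40.4 and 38.0 CPM in LPS+resveratrol, against 40.4, 37.5 and 37.9 CPM in LPS, and Pdk1 was at 5.20 to 6.96 CPM in LPS+resveratrol and 5.39 to 5.94 CPM in LPS. Per kb, Pdk3 was the main kinase of the 3 compared, at 85.8% to 88.8% of their sum in LPS+resveratrol and 87.4% to 89.1% in LPS.

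Of the 6 members listed under glycogen, Gbe1 and Pgm2 rose without LPS+resveratrol replicate 1 and none fell. Gbe1, the branching enzyme that adds side chains to glycogen, had 109, 94.3 and 80.0 CPM in LPS+resveratrol, against 67.0, 79.4 and 74.2 CPM in LPS. The lowest LPS+resveratrol library was just above the highest LPS library. In edgeR the log2 fold change was 0.36 ± 0.14 over 6 libraries (adjusted p = 0.223) and 0.24 ± 0.07 without LPS+resveratrol replicate 1 (adjusted p = 0.0188). Pgm2, the gene ENSMUSG00000029171, had 52.7, 46.4 and 49.0 CPM in LPS+resveratrol, against 41.9, 37.5 and 34.0 CPM in LPS, with no overlap. Its log2 fold change was 0.38 ± 0.12 over 6 libraries (adjusted p = 0.155) and 0.33 ± 0.08 without LPS+resveratrol replicate 1 (adjusted p = 0.00229). Phosphoglucomutases of this family move phosphate on glucose or pentose sugars. The symbols of Pgm2 and Pgm1 were exchanged in mouse nomenclature, so the identifiers decide which gene is meant. These data do not show which sugar either enzyme uses, so the place of Pgm2 among the glycogen genes rests on the list. Pgm1, the gene ENSMUSG00000025791, had 13.1, 12.7 and 12.0 CPM in LPS+resveratrol, against 11.2, 11.2 and 11.5 CPM in LPS, and did not pass.

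Pygl had 1191, 1194 and 1159 CPM in LPS+resveratrol, against 1110.3, 1143 and 1132 CPM in LPS. Each LPS+resveratrol library was higher, by 1.05-fold over 6 libraries (adjusted p = 0.689). It made up 99.0% to 99.1% of the summed phosphorylase level per kb in LPS+resveratrol and 99.2% to 99.3% in LPS. Gys1, the glycogen synthase, had 58.0, 41.9 and 39.1 CPM in LPS+resveratrol, against 42.5, 45.3 and 45.6 CPM in LPS, with replicate 1 above the LPS range and replicates 2 and 3 below it. Ugp2, which makes the UDP-glucose that glycogen synthase uses, had 77.6, 112 and 108 CPM in LPS+resveratrol, against 115, 108 and 107 CPM in LPS. Neither passed in either fit.

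Hif1a and Egln3, which encodes an oxygen-dependent prolyl hydroxylase that marks HIF for destruction and is itself a HIF target, passed in neither fit. With the length and GC offsets and without LPS+resveratrol replicate 1, Hif1a passed in edgeR (log2 fold change -0.13, adjusted p = 0.0458). Hif1a had 290.4, 185 and 205 CPM in LPS+resveratrol, against 218, 208 and 200.3 CPM in LPS, so that replicate 1 was the highest of all and the other values lay between 185 and 218. Egln3 had 9.52, 12.30 and 11.4 CPM in LPS+resveratrol, against 13.7, 12.35 and 14.4 CPM in LPS. Its groups did not overlap by a narrow margin, and its log2 fold change was -0.28 ± 0.15 over 6 libraries (adjusted p = 0.322) and -0.20 ± 0.12 without LPS+resveratrol replicate 1 (adjusted p = 0.229).

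Other genes of the same pathways were taken from 4 lists. Of 26 tested other glycolysis and pyruvate genes, 1 fell and none rose over 6 libraries, or 3.85%, against 1.83% of all tested genes. Without LPS+resveratrol replicate 1 there were 4 higher and 2 lower, or 23.1%, against 25.4% of all tested genes. The gene that fell was Pgam2, the muscle-type phosphoglycerate mutase, with 3.77, 4.10 and 3.62 CPM in LPS+resveratrol, against 7.79, 8.20 and 8.48 CPM in LPS (log2 fold change -1.09 ± 0.14, adjusted p = 0.0243). With the length and GC offsets it was -0.68 (adjusted p = 0.159). Adpgk, an ADP-dependent glucokinase, had 924, 928 and 1005 CPM in LPS+resveratrol, against 744, 728 and 756 CPM in LPS, at an adjusted p of 0.102 over 6 libraries and 3.86e-07 without LPS+resveratrol replicate 1. Mpc2, a subunit of the mitochondrial pyruvate carrier, had 10.8, 25.1 and 26.0 CPM in LPS+resveratrol, against 25.4, 31.2 and 30.1 CPM in LPS, and Eno3, the muscle enolase, 3.61 to 6.63 CPM and 5.76 to 7.24 CPM. Neither passed. Another 5 genes of this list had an unadjusted p under 0.05 over 6 libraries but lay below a mean of 5 CPM and are not described.

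Of 11 tested other sugar and lactate transport genes none passed over 6 libraries with edgeR or DESeq2, and 2 had an unadjusted p under 0.05 in edgeR, or 18.2%, against 19.9% of all tested genes. In the fit without LPS+resveratrol replicate 1, 3 fell and none rose, or 27.3%, against 25.4% of all tested genes. Txnip, which restrains glucose uptake, had 441, 457 and 471 CPM in LPS+resveratrol, against 568, 544 and 522 CPM in LPS, and fell without LPS+resveratrol replicate 1 (log2 fold change -0.24 ± 0.05, adjusted p = 0.000762). Slc16a6, a transporter of the monocarboxylate family, had 154, 143 and 142 CPM in LPS+resveratrol, against 161, 156 and 171 CPM in LPS, and fell in the same fit (adjusted p = 0.00285). Arrdc4, a relative of Txnip, had 60.9, 53.2 and 59.3 CPM in LPS+resveratrol, against 51.7, 51.4 and 49.9 CPM in LPS. Slc16a1, the lactate and pyruvate carrier MCT1, had 6.95 to 10.3 CPM in LPS+resveratrol and 9.69 to 12.0 CPM in LPS. Neither passed.

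Of 17 tested other glycogen genes none passed over 6 libraries in edgeR, where 6 had an unadjusted p under 0.05, or 35.3%, against 19.9% of all tested genes. DESeq2 called 3, or 17.6%, against 6.27% of all tested genes. Without LPS+resveratrol replicate 1 there were 4 higher and 2 lower, or 35.3%, against 25.4% of all tested genes. Gyg, glycogenin, which primes new glycogen chains, had 104, 113 and 108 CPM in LPS+resveratrol, against 80.2, 85.9 and 73.9 CPM in LPS (log2 fold change 0.46 ± 0.06 without LPS+resveratrol replicate 1, adjusted p = 1.75e-07). Pgm2l1, which makes a glucose bisphosphate cofactor of phosphoglucomutase, and Pygb, the brain-type phosphorylase, rose in the same fit with adjusted p of 0.00212 and 0.0127. Gaa, the lysosomal glucosidase that breaks down glycogen, had 9.30, 10.4 and 9.18 CPM in LPS+resveratrol, against 14.5, 13.3 and 14.4 CPM in LPS, and fell there (log2 fold change -0.53 ± 0.12, adjusted p = 0.000648).

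Of 25 tested other oxygen-sensing genes and HIF targets, 1 rose and 1 fell over 6 libraries, or 8% of the list, against 1.83% of all tested genes. Without LPS+resveratrol replicate 1 there were 10 higher and 3 lower, or 52.0% of the list, against 25.4% of all tested genes. Vegfa, the vascular growth factor, had 50.6, 44.5 and 46.2 CPM in LPS+resveratrol, against 28.1, 28.5 and 29.1 CPM in LPS (log2 fold change 0.72 ± 0.10, adjusted p = 0.0284 over 6 libraries). Bhlhe40, a transcriptional repressor, had 269, 188 and 210.4 CPM in LPS+resveratrol, against 423, 413 and 405 CPM in LPS (-0.90 ± 0.14, adjusted p = 0.0359). Plin2, a lipid droplet coat protein, had 145, 196 and 187 CPM in LPS+resveratrol, against 296, 293 and 271 CPM in LPS, at an adjusted p of 0.0536 over 6 libraries, and fell without LPS+resveratrol replicate 1 (-0.59 ± 0.05, adjusted p = 5.71e-11). Bnip3, a mitophagy receptor, had 5.91, 7.99 and 7.09 CPM in LPS+resveratrol, against 3.70, 4.42 and 4.08 CPM in LPS, and rose in that fit (adjusted p = 0.000101). The calls of Pgam2, Vegfa and Bhlhe40 over 6 libraries were lost when any library other than LPS+resveratrol replicate 1 was left out, with adjusted p between 0.0844 and 0.198 for Pgam2, 0.0844 and 0.212 for Vegfa and 0.103 and 0.223 for Bhlhe40. The median log2 fold change over 6 libraries was -0.03 for the glycolysis and pyruvate list, -0.26 for transport, 0.19 for glycogen and 0.13 for oxygen sensing, against -0.004 over all tested genes. Leaving out LPS+resveratrol replicate 1, these medians were -0.02, -0.20, 0.06 and 0.14, in the same order, against -0.0071 over all tested genes.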

How the data were processed

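RNA was measured in 3 LPS+resveratrol and 3 LPS samples of mouse neutrophils. The authors deposited whole-number counts for each Ensembl gene ID, not normalized. The submitters' processing notes name Bowtie 0.12.2 and the mm8 build. How reads were counted, with which annotation and strand setting, is not given in the sources used here. Of 25663 IDs, 25595 were matched to a symbol.

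Genes passing filterByExpr (minimum count 10) were tested with edgeR 4.0.16 (R 4.3.3): TMM scaling, robust quasi-likelihood, group as the sole term, two-sided, Benjamini-Hochberg adjustment over the 13468 tested genes and a threshold of 0.05. Standard errors came from the F statistic. The comparison without LPS+resveratrol replicate 1 kept these genes. The coefficient of variation between replicates in edgeR, which can be biological or technical, was 19.8% with all libraries and 7.43% without that one. CPM values use totals over the tested genes, scaled by TMM factors. Length and GC came from the longest coding transcript of GENCODE M21, and offsets were natural splines with 4 degrees of freedom. Alternatives used DESeq2 1.42.0 and limma 3.58.1.

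No replicate pair agreed within sampling noise. Chi-square per degree of freedom was 3.29 for LPS+resveratrol replicates 2 and 3 and 3.78 for LPS replicates 1 and 3. LPS replicate 2 gave 15.2 and 14.7 against LPS replicates 1 and 3. LPS+resveratrol replicate 1 gave 117 and 120 against its replicates 2 and 3. The comparison without it rests on LPS+resveratrol replicates 2 and 3 alone in that group. The members and lists were chosen with earlier results of these data known. Values per sample are given for members past the threshold without LPS+resveratrol replicate 1 with a mean of at least 50 CPM and for 12 members fixed by name; from each other list, the 4 genes with the smallest p over 6 libraries at a mean of at least 5 CPM are named, and any that passed. Other members' values were added after they were seen.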

Additional observations from a re-analysis of the deposited data

How the results depend on the processing

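Over 6 libraries edgeR called 90 genes higher and 157 lower, DESeq2 394 and 451, limma-voom with quality weights 1549 and 1599, no filter on low counts 153 and 239, and length and GC offsets 369 and 441. Without LPS+resveratrol replicate 1 the offsets gave 1850 higher and 1620 lower. Leaving out 1 library gave 0 to 1634 higher and 0 to 1786 lower, the upper values without LPS+resveratrol replicate 1. Among the members, DESeq2 called 1 higher and 1 lower, quality weights 6 and 5, no filter 0 and 1, and the offsets 2 and 1. The offsets without LPS+resveratrol replicate 1 called 8 and 6, and leaving out 1 library 0 to 6 in each direction. Shares of members against shares of all tested genes were 6.25% and 6.27% for DESeq2, and 34.4% and 23.4% for quality weights. For no filter they were 3.03% and 1.53%, and for the offsets 9.38% and 6.01%. For the offsets without LPS+resveratrol replicate 1 they were 43.8% and 25.8%. Leaving out LPS+resveratrol replicate 1 alone gave 37.5% and 25.4%. Samples with the same replicate number did not deviate together (correlations 0.0195, -0.0167 and 0.000425), and with the replicate number as a block 0 genes were called higher and 0 lower, with 2287 at an unadjusted p under 0.05. Under the block, Pgam2, Vegfa and Bhlhe40 had adjusted p of 0.121, 0.126 and 0.116.

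The 12 members called without LPS+resveratrol replicate 1 had the same sign under each of the settings run. The settings reuse the libraries from which the 12 were picked, so this agreement is no separate support. Of the 12 members, Eno1 alone did not pass in limma-voom with quality weights (adjusted p = 0.104). It was also the only one lost in edgeR with the offsets and without LPS+resveratrol replicate 1 (adjusted p = 0.395). In that edgeR fit Pkm, Pgk1 and Hif1a passed besides, with log2 fold changes of 0.18, 0.17 and -0.13 (adjusted p = 0.0022, 0.0102 and 0.0458). With quality weights, the log2 fold change changed sign to 0.11 for Pgk1, 0.040 for Slc2a6, -0.13 for Gys1 and -0.085 for Hif1a. With the offsets it became 0.034 for Gpi1, 0.30 for Gapdh, 0.011 for Pgk1, 0.19 for Pgam1, -0.087 for Pdk1 and -0.066 for Hif1a. With the offsets and without LPS+resveratrol replicate 1 it became 0.035 for Gpi1, 0.037 for Gapdh, 0.17 for Pgk1, 0.034 for Bpgm, 0.023 for Slc2a1, 0.12 for Slc2a6, -0.10 for Gys1, 0.0079 for Ugp2, -0.13 for Hif1a and 0.0020 for Eno3. Leaving out 1 library gave -0.21 to 0.12 for Pgk1, -0.080 to 0.019 for Pgam1, -0.42 to 0.051 for Slc2a6, -0.08 to 0.12 for Pdk1, -0.14 to 0.14 for Gys1 and -0.11 to 0.25 for Hif1a. The cause was not tested. Depth limited Pfkm, Bpgm and Aldoc, whose counts were below 100 in every library.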
